A study of Mus musculus with 3 samples.

Results

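Wnt and β-catenin pathway genes were examined in single-cell RNA sequencing (scRNA-seq) data of mouse medial prefrontal cortex (mPFC). The 10 genes were taken by symbol, *Wnt7b*, *Wnt7a*, *Fzd3*, *Lrp6*, *Dvl1*, *Apc*, *Gsk3a*, *Gsk3b*, *Ctnnb1* and *Tcf7l2*, and all 10 are among the 14933 genes of the table of filtered cells. Cells were dissociated with papain from mPFC of C57Bl6 mice at postnatal day 5 (P5), sorted for endogenous tdTomato and captured with the 10X Genomics kit, 1 library per genotype. All 3 libraries carry *Rbp4-cre* and the tdTomato reporter, and *Rbp4-cre* was the driver chosen to remove *Tbr1* from layer 5 projection neurons. The wild-type library is Rbp4cre::tdTomato, the heterozygous library Tbr1f/+::Rbp4cre::tdTomato and the homozygous library Tbr1f/f::Rbp4cre::tdTomato. How many animals went into a library, and their sex, was not given in the sources used here.

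Secreted WNT ligands bind Frizzled receptors and the LRP5 and LRP6 coreceptors at the cell surface, and Dishevelled proteins carry the signal inside. Without ligand, a destruction complex built on APC and AXIN holds GSK3 kinases next to β-catenin (*Ctnnb1*), which is phosphorylated and degraded. With ligand, β-catenin builds up, enters the nucleus and acts with TCF/LEF factors such as TCF7L2. In the developing cortex the pathway is known for roles in progenitor growth, blood vessel formation, oligodendrocyte maturation and synapse formation.

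The unit throughout is CPM, the unique molecular identifiers (UMIs) of a gene per 1000000 UMIs of the same cells. The kit counts the 3′ end of each transcript, so a level does not scale with transcript length, and levels were compared between cells and not between genes. 3 groups of cells were formed from the lists of the authors. Typical neuronal cells are those that the authors kept for differential expression, 1778 (wild-type), 5357 (heterozygous) and 3935 (homozygous), with 3670646, 10418228 and 6074494 UMIs. Atypical neuronal cells, which the authors set apart, number 304, 107 and 462 in the same order. Filtered cells outside the neuronal table number 2873, 1398 and 1182. With 1 library per genotype there is no replicate error and no test between genotypes. The 95% intervals, exact Poisson for a level and exact conditional binomial for a ratio, cover counting error only.

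Typical neuronal cells were shallower in the homozygous library (median 1375 UMIs per cell) than in the heterozygous (1743) and wild-type (1901) libraries. The median share of mitochondrial UMIs, which are part of the CPM denominator, was 10.4, 15.4 and 12.5% in typical neuronal cells and 4.45, 13.0 and 7.95% in cells outside the neuronal table of the wild-type, heterozygous and homozygous library. The summed CPM of 8 excitatory neuron markers was 2895, 3556 and 4204 in the wild-type, heterozygous and homozygous library, each above the 1753, 2467 and 2749 CPM of empty droplets, taken as barcodes outside the filtered cells with at least 100 and fewer than 500 UMIs. Single markers did not all follow this order, with *Neurod6* at 201, 246 and 240 CPM, *Neurod2* at 41.1, 39.5 and 44.0 and *Slc17a7* at 38.4, 46.9 and 38.5. *Nrgn* and *Cnih2* of this list also served the authors to pick neuronal clusters. The summed CPM of 9 endothelial markers in typical neuronal cells was 141, 49.1 and 79.0 in the wild-type, heterozygous and homozygous library, that of 9 mural markers 57.5, 24.0 and 31.3, and that of 5 blood markers 345, 44.6 and 85.8. All markers of these 3 lists had at least 1 UMI in each library, and each of the 3 was highest in the wild-type library. So were the inhibitory neuron (107, 80.1 and 77.5 CPM), oligodendrocyte lineage (376, 349 and 303), microglia (45.5, 30.1 and 31.8) and meningeal fibroblast (22.1, 8.16 and 8.23) lists. The astrocyte and radial glia list was at 88.2 to 102% of its empty-droplet level, and the striatal neuron list was highest in the homozygous library (41.7, 39.8 and 60.4 CPM). *Tbr1* was at 27.5, 30.7 and 22.4 CPM, with a homozygous over wild-type log2 ratio of −0.30 (−0.68 to 0.09), and 3′ counts do not show whether the floxed exons are present. Between 37 and 58 cell barcodes were shared by each pair of libraries, and 37.5 to 51.9 would be shared by independent draws.

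*Gsk3b*, *Ctnnb1* and *Gsk3a* encode both GSK3 kinases and their substrate, and *Tbr1* encodes a T-box factor, so the promoters of these genes are shown with the T-box half-site searched. The sequences are the 250 bases before the RefSeq start on GRCm38.p6, 5′ to 3′ on the strand of the gene, at chr16:38088751-38089000 (+) for *Gsk3b*, chr9:120933150-120933399 (+) for *Ctnnb1* (the first of 2 starts) and chr7:25237852-25238101 (−) for *Gsk3a*. Capitals mark GGTGTGA on either strand.
Gsk3b: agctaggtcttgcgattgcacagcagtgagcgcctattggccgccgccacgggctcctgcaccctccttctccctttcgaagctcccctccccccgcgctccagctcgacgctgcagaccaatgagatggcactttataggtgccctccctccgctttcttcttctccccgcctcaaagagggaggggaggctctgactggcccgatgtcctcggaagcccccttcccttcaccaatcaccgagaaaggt
Ctnnb1: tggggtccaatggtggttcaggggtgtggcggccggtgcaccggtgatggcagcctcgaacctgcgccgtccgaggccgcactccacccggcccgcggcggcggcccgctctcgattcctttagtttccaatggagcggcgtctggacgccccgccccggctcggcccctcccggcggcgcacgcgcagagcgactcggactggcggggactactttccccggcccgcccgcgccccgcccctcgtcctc
Gsk3a: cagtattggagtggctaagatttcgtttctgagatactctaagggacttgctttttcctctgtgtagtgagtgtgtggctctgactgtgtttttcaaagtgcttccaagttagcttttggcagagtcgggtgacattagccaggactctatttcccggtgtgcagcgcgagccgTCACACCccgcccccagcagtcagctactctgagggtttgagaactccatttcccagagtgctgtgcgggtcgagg
*Gsk3a* holds 1 match, in the reverse direction as TCACACC, that begins at position −76 from the start. The windows shown for *Gsk3b* and *Ctnnb1* hold no match to these letters. RefSeq windows of 300 bases, 50 of them after the start, were at hand for 6 of the 10 genes, *Dvl1*, *Wnt7a* and *Tcf7l2* besides these 3, and GGTGTGA was found in 1 of the 6 genes. It occurs in 4.60% of all 27025 genes with such a window. The TCF/LEF sequence CTTTGAT, searched on both strands, was found in 0 of the 6 genes and in 4.29% of all genes.

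In typical neuronal cells, 5 of the 10 genes reached a mean of 20 CPM over the libraries (*Wnt7b*, *Apc*, *Gsk3a*, *Gsk3b* and *Ctnnb1*). A gene at this level counted as past the limit when 2 libraries differed by 0.32 or more on the log2 scale, a ratio of 5 to 4. Between the homozygous and wild-type libraries 2 of the 5 genes were past the limit, *Gsk3b* higher and *Wnt7b* lower in the homozygous library. Of all 4261 genes at this level, 25.7% were past the limit, 17.2% higher and 8.5% lower in the homozygous library. With edgeR TMM factors the shares were 10.98% and 12.7%, and 3 of the 5 genes were past the limit, all lower in the homozygous library, *Wnt7b* (−0.60), *Apc* (−0.37) and *Ctnnb1* (−0.33). Between the heterozygous and wild-type libraries 0 of the 5 genes were past it, beside 26.6% of the 4261 genes, 17.1% higher and 9.5% lower. Between the homozygous and heterozygous libraries 1 of the 5 genes was past it, *Wnt7b*, beside 6.71% of all genes, 4.04% higher and 2.68% lower. At a stricter limit of 1.5-fold, 0 of the 5 genes were past it against the wild-type library in either mutant, beside 4.9% of all genes for homozygous over wild-type (2.96% higher, 1.95% lower) and 5.98% for heterozygous over wild-type (3.59% higher, 2.39% lower). *Wnt7b* was past it for homozygous over heterozygous, beside 1.15% of all genes (0.681% higher, 0.469% lower). The median log2 ratio of the 5 genes was −0.26 for homozygous over wild-type and −0.21 for heterozygous over wild-type, beside 0.08 and 0.06 over all genes. Both comparisons use the same wild-type library. The plot of all genes by ratio shows where the 5 genes lie.

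**Figure D1:**
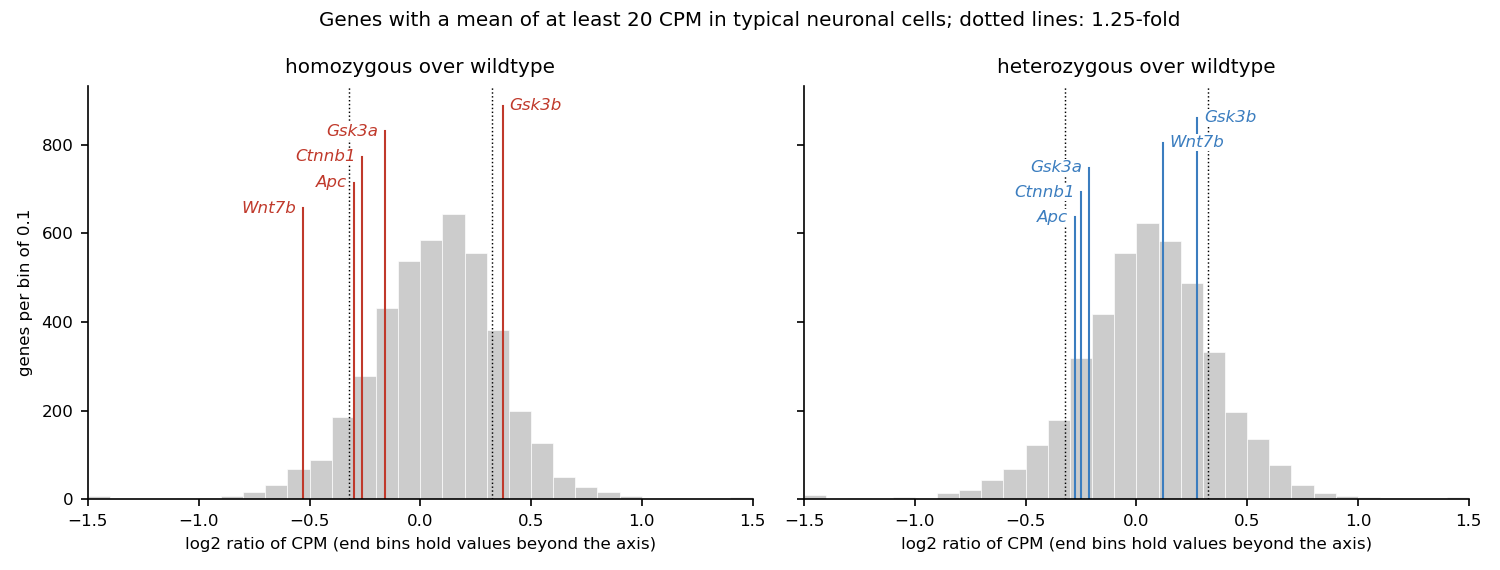
Number of genes (y axis) by log2 ratio of CPM (x axis, bins of 0.1) among the 4261 genes at 20 CPM or more on average in typical neuronal cells, for homozygous over wild-type (left) and heterozygous over wild-type (right). Lines mark the 5 pathway genes at this level and dotted lines a log2 ratio of 0.32 either way, and only *Gsk3b* (0.37) and *Wnt7b* (−0.53), both on the left, lie outside the dotted lines.

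*Wnt7b*, a ligand known in the cortex for effects on dendrites and brain vessels, lies at chr15:85535437-85582473 (−). In typical neuronal cells it had 96 (wild-type), 296 (heterozygous) and 110 (homozygous) UMIs, or 26.2, 28.4 and 18.1 CPM. The homozygous library was the lowest, and its interval (14.9 to 21.8 CPM) overlapped that of the wild-type library (21.2 to 31.9) but not that of the heterozygous library (25.3 to 31.8). The log2 ratio was −0.53 (−0.94 to −0.12) for homozygous over wild-type, 0.12 (−0.22 to 0.47) for heterozygous over wild-type and −0.65 (−0.98 to −0.33) for homozygous over heterozygous.

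Empty droplets held *Wnt7b* at 18.4, 25.1 and 18.2 CPM in the wild-type, heterozygous and homozygous library. The level of typical neuronal cells was thus that of empty droplets in the homozygous library and above it in the wild-type library, and in the heterozygous library the intervals overlapped. In empty droplets the log2 ratio was −0.47 (−0.74 to −0.20) for homozygous over heterozygous, 0.45 (0.18 to 0.71) for heterozygous over wild-type and −0.02 (−0.27 to 0.23) for homozygous over wild-type. The lower *Wnt7b* level of the homozygous than of the heterozygous library was therefore also measured in empty droplets, and their part in it was not tested. Filtered cells outside the neuronal table had it too, with a homozygous over heterozygous ratio of −0.68 (−1.24 to −0.14). Endothelial cell-like cells, described below, had 5 *Wnt7b* UMIs in all libraries together, 3.16 CPM (1.03 to 7.37), and microglia-like cells 1, 1.94 CPM. These levels were below those of typical neuronal cells in each library. With the empty-droplet profile subtracted at the largest share that non-neuronal markers allow, 25.3, 12.8 and 19.6% of the UMIs, the homozygous over wild-type ratio of *Wnt7b* was −0.67.

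*Wnt7a*, the close relative of *Wnt7b* that shares its coreceptors on brain endothelium, lies at chr6:91363981-91411363 (−). It had 19, 36 and 18 UMIs in typical neuronal cells, 5.18, 3.46 and 2.96 CPM in the wild-type, heterozygous and homozygous library, beside 5.21, 3.17 and 4.24 CPM in empty droplets. Levels of typical neuronal cells were within the counting interval of empty droplets in the wild-type and heterozygous libraries and below it in the homozygous library. The log2 ratio was −0.80 (−1.82 to 0.20) for homozygous over wild-type and −0.58 (−1.42 to 0.30) for heterozygous over wild-type, and a difference was not detectable at this depth.

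The receptor *Fzd3*, known for axon guidance, had 25, 91 and 60 UMIs in typical neuronal cells, 6.81, 8.73 and 9.88 CPM. The coreceptor *Lrp6* had 21, 62 and 48 UMIs, 5.72, 5.95 and 7.90 CPM. *Dvl1*, a Dishevelled adaptor downstream of the receptors, had 31, 65 and 50 UMIs, 8.45, 6.24 and 8.23 CPM. For these 3 genes the intervals of all 3 comparisons spanned 0. Their levels in empty droplets were 4.23 to 9.79 CPM, beside 5.72 to 9.88 CPM in typical neuronal cells.

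*Apc*, the scaffold of the destruction complex and a microtubule-binding protein, had 1962, 4589 and 2635 UMIs in typical neuronal cells of the wild-type, heterozygous and homozygous library. The levels were 535, 440 and 434 CPM, so the wild-type library was above both mutant libraries with no overlap of intervals, while the mutant libraries differed by −0.02 (−0.09 to 0.05) on the log2 scale. The log2 ratio was −0.30 (−0.39 to −0.22) for homozygous over wild-type and −0.28 (−0.36 to −0.20) for heterozygous over wild-type, both just inside the limit of 0.32. Empty droplets were also highest in the wild-type library, at 429, 296 and 320 CPM, with the mutant libraries in the opposite order (homozygous over heterozygous 0.11, 0.04 to 0.18) and ratios to wild-type of −0.42 (−0.48 to −0.37) for homozygous and −0.53 (−0.60 to −0.47) for heterozygous. After subtraction of the empty-droplet profile the ratios in typical neuronal cells were −0.30 and −0.30.

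*Gsk3b*, the kinase that marks β-catenin for degradation, lies at chr16:38089001-38246084 (+). Of the 10 genes it was the one with higher levels in both mutant libraries at an interval above 0. The share of all genes at its level with such intervals was not counted. Typical neuronal cells held 749 (wild-type), 2573 (heterozygous) and 1605 (homozygous) *Gsk3b* UMIs. The levels were 204, 247 and 264 CPM, and the intervals of the mutant libraries (237 to 257 and 251 to 277) lay above that of the wild-type library (190 to 219). The log2 ratio was 0.37 (0.25 to 0.50) for homozygous over wild-type, 0.28 (0.16 to 0.39) for heterozygous over wild-type and 0.10 (0.01 to 0.19) for homozygous over heterozygous.

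Empty droplets had *Gsk3b* at 163, 193 and 188 CPM, with a log2 ratio of 0.20 (0.12 to 0.29) for homozygous over wild-type and 0.24 (0.15 to 0.33) for heterozygous over wild-type. After subtraction of the empty-droplet profile the ratios in typical neuronal cells were 0.38 and 0.23. As mean raw UMIs per cell, which keeps the lower depth of the homozygous cells, the homozygous over wild-type ratio of *Gsk3b* was −0.05, beside a median of −0.34 over all genes. That scale moves all genes by the same amount. With edgeR TMM factors the ratio was 0.30 and with DESeq2 size factors 0.29, both inside the limit of 0.32. *Gsk3a*, the related kinase, had 114, 279 and 169 UMIs, 31.1, 26.8 and 27.8 CPM, beside 19.8, 20.6 and 21.7 CPM in empty droplets. Its homozygous over wild-type ratio was −0.16 (−0.51 to 0.20) and its heterozygous over wild-type ratio −0.21 (−0.53 to 0.11).

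*Ctnnb1*, which encodes β-catenin, lies at chr9:120929216-120960507 (+). Typical neuronal cells held 750, 1792 and 1035 *Ctnnb1* UMIs in the wild-type, heterozygous and homozygous library, 204, 172 and 170 CPM. Both mutant libraries were below the wild-type library, and their intervals (164 to 180 and 160 to 181) did not overlap its interval (190 to 220). The log2 ratio was −0.26 (−0.40 to −0.12) for homozygous over wild-type, −0.25 (−0.37 to −0.12) for heterozygous over wild-type and −0.01 (−0.13 to 0.10) for homozygous over heterozygous. Neither ratio was past the limit. Empty droplets had 159, 140 and 152 CPM, a homozygous over wild-type ratio of −0.06 (−0.15 to 0.02) and a heterozygous over wild-type ratio of −0.19 (−0.29 to −0.09).

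The nuclear partner *Tcf7l2*, at chr19:55741820-55933654 (+), had 19, 75 and 47 UMIs in typical neuronal cells, 5.18, 7.20 and 7.74 CPM, beside 12.5, 7.75 and 7.74 CPM in empty droplets. Typical neuronal cells were thus at or below empty droplets in each library. Non-neuronal markers allowed at most 25.3, 12.8 and 19.6% of the UMIs to come from empty droplets. How many of these *Tcf7l2* counts are background was not tested. The ratios of all 10 genes are plotted with their intervals. In the 5 genes under 20 CPM the intervals of all comparisons spanned 0.

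**Figure D2:**
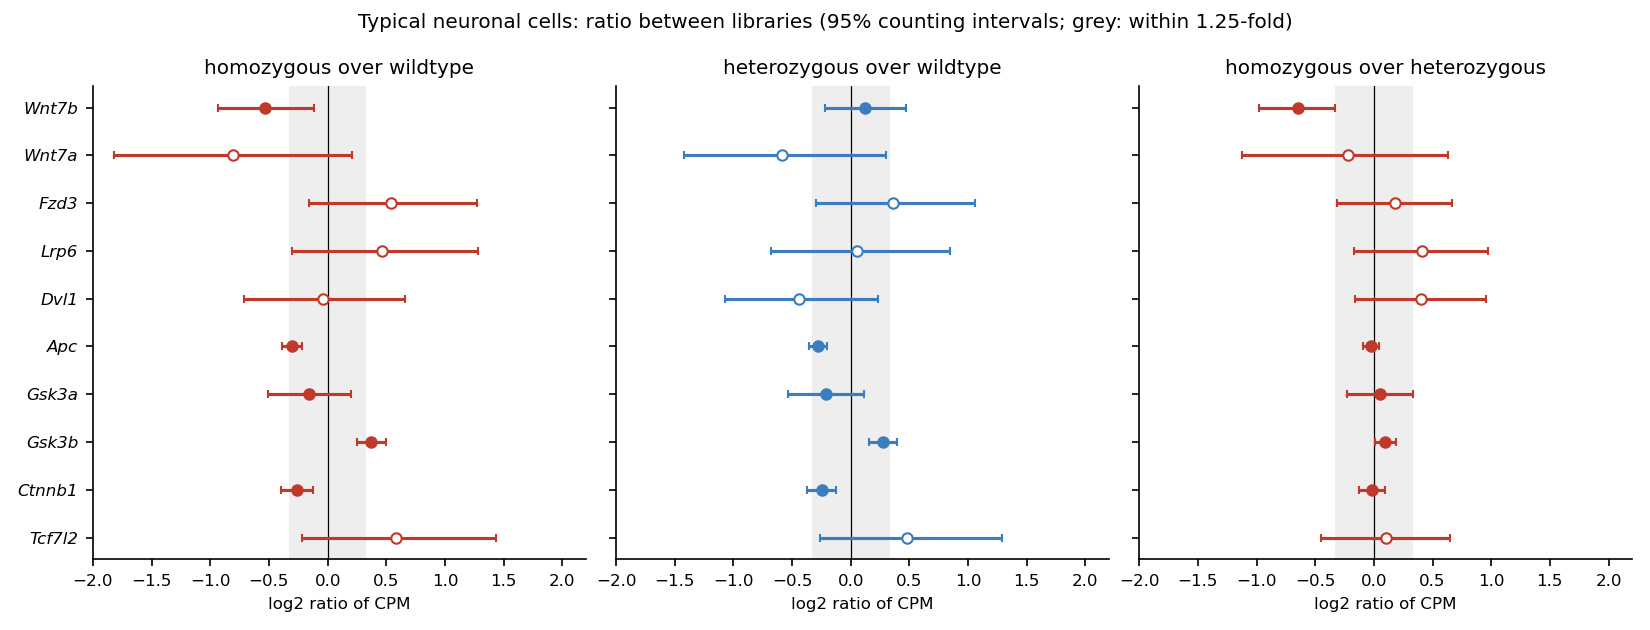
Log2 ratio of CPM in typical neuronal cells (x axis) for each of the 10 genes (y axis) in the 3 comparisons between libraries, with 95% counting intervals as bars and ratios within 0.32 in grey. Filled points are genes at 20 CPM or more on average, and intervals of *Apc*, *Gsk3b* and *Ctnnb1* exclude 0 in both comparisons with the wild-type library, *Gsk3b* to the right and the other two to the left. The share of all genes at this level whose intervals exclude 0 was not counted, so these intervals do not set the pathway genes apart.

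A wider pathway list of 93 genes by role, the 10 included, was read in the same cells. Of these genes 75 are in the filtered table, and 11 reached 20 CPM in typical neuronal cells. The 6 beyond the 10 genes were *Apc2*, *Csnk1a1*, *Ctnnbip1*, *Bcl9*, *Tle4* and *Ccnd1*. For homozygous over wild-type 1 of the 6 was past the limit, *Apc2*, in the lower direction, beside the 25.7% of all genes given above, and the median log2 ratio of the 6 was 0.05. For heterozygous over wild-type it was again 1 of the 6, *Apc2*, beside 26.6% of all genes, and the median was −0.09. For homozygous over heterozygous it was 1 of the 6, beside 6.71% of all genes, *Bcl9*, with a ratio of 0.36 (0.05 to 0.66). *Bcl9* was just inside the limit with mitochondrial and ribosomal protein genes left out of the denominator (all genes: 3.10% higher, 3.68% lower).

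*Apc2*, the neuronal relative of *Apc*, was at 77.6, 56.6 and 55.3 CPM in the wild-type, heterozygous and homozygous library, with ratios of −0.49 (−0.72 to −0.26) for homozygous over wild-type and −0.46 (−0.66 to −0.25) for heterozygous over wild-type. *Apc* and *Apc2* were thus both lowest in the 2 mutant libraries, which hardly differed from each other. *Csnk1a1*, the priming kinase of β-catenin, was at 87.7, 92.4 and 94 CPM, and *Ctnnbip1*, an inhibitor of β-catenin and TCF binding, at 270.5, 290.2 and 293 CPM. The cofactors *Bcl9* and *Tle4* were at 25.3, 20.4 and 26.2 CPM and at 30.5, 25.9 and 30.3 CPM. *Ccnd1*, a cyclin known as a pathway target, was at 43.0, 44.5 and 44.8 CPM and the intervals of its ratios spanned 0. Of the 11 measured feedback targets, intervals lay above 0 for 2 in homozygous over wild-type, *Znrf3* and *Myc*, and for 3 in heterozygous over wild-type, with *Nkd1*, and below 0 for 0 in both. Of all 4259 genes at 5 to 20 CPM, 6.64% and 7.09% had intervals above 0 in these comparisons, and 6.60% and 9.11% below 0. Only these 3 of the 11 targets lie in that range, so the shares are no background for the 11. The log2 ratios were 1.004 (0.34 to 1.71) and 0.67 (0.04 to 1.36) for *Znrf3*, which removes Frizzled receptors from the surface, and 0.62 (0.08 to 1.17) and 0.54 (0.04 to 1.07) for *Myc*. *Nkd1* was at 0.51 (0.06 to 0.98) for heterozygous over wild-type, below its empty-droplet level in each library. The 3 lower bounds for heterozygous over wild-type were at most 0.06, the median over all genes in that comparison. Other scaling factors were not tried for these intervals. In empty droplets *Myc* was at 7.48, 17.5 and 13.9 CPM and *Znrf3* at 8.48, 9.28 and 9.20 CPM, beside 11.2, 16.2 and 17.1 CPM and 6.81, 10.8 and 13.7 CPM in typical neuronal cells. These 3 genes were singled out after their values were seen. Outside the feedback targets, list genes under 20 CPM had intervals below 0, also picked after their values were seen. For homozygous over wild-type they were *Sfrp1* at −0.78 (−1.36 to −0.20), *Sfrp2* at −1.05 (−2.09 to −0.03) and *Pygo1* at −0.73 (−1.42 to −0.03). For heterozygous over wild-type they were *Sfrp1* at −1.26 (−1.81 to −0.71) and *Dkk3* at −0.52 (−0.97 to −0.05). *Sfrp4*, with at most 4 UMIs per library, was below 0 in both. By role, 1 of 8 measured ligands, 5 of 10 genes of the destruction complex, 4 of 14 of β-catenin and its nuclear partners and 1 of 11 feedback targets reached 20 CPM. None of 16 receptors and coreceptors, 16 secreted modulators, 3 Dishevelled genes and 3 genes of ligand secretion did.

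Levels in typical neuronal, atypical neuronal and other cells and in empty droplets are plotted by library. In atypical neuronal cells *Gsk3b* was at 213, 245 and 267 CPM, the same order as in typical cells, and the homozygous over wild-type ratio was 0.33 (0.01 to 0.65). *Apc* was at 400, 379 and 386 CPM with a ratio of −0.05 (−0.29 to 0.20), and *Ctnnb1* at 201, 166 and 229 CPM with a ratio of 0.19 (−0.14 to 0.53). Within the homozygous library *Ctnnb1* was higher in atypical than in typical cells by 0.43 (0.19 to 0.66) on the log2 scale. The atypical cells were set apart by the authors on the same counts, so these differences are descriptions.

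**Figure D3:**
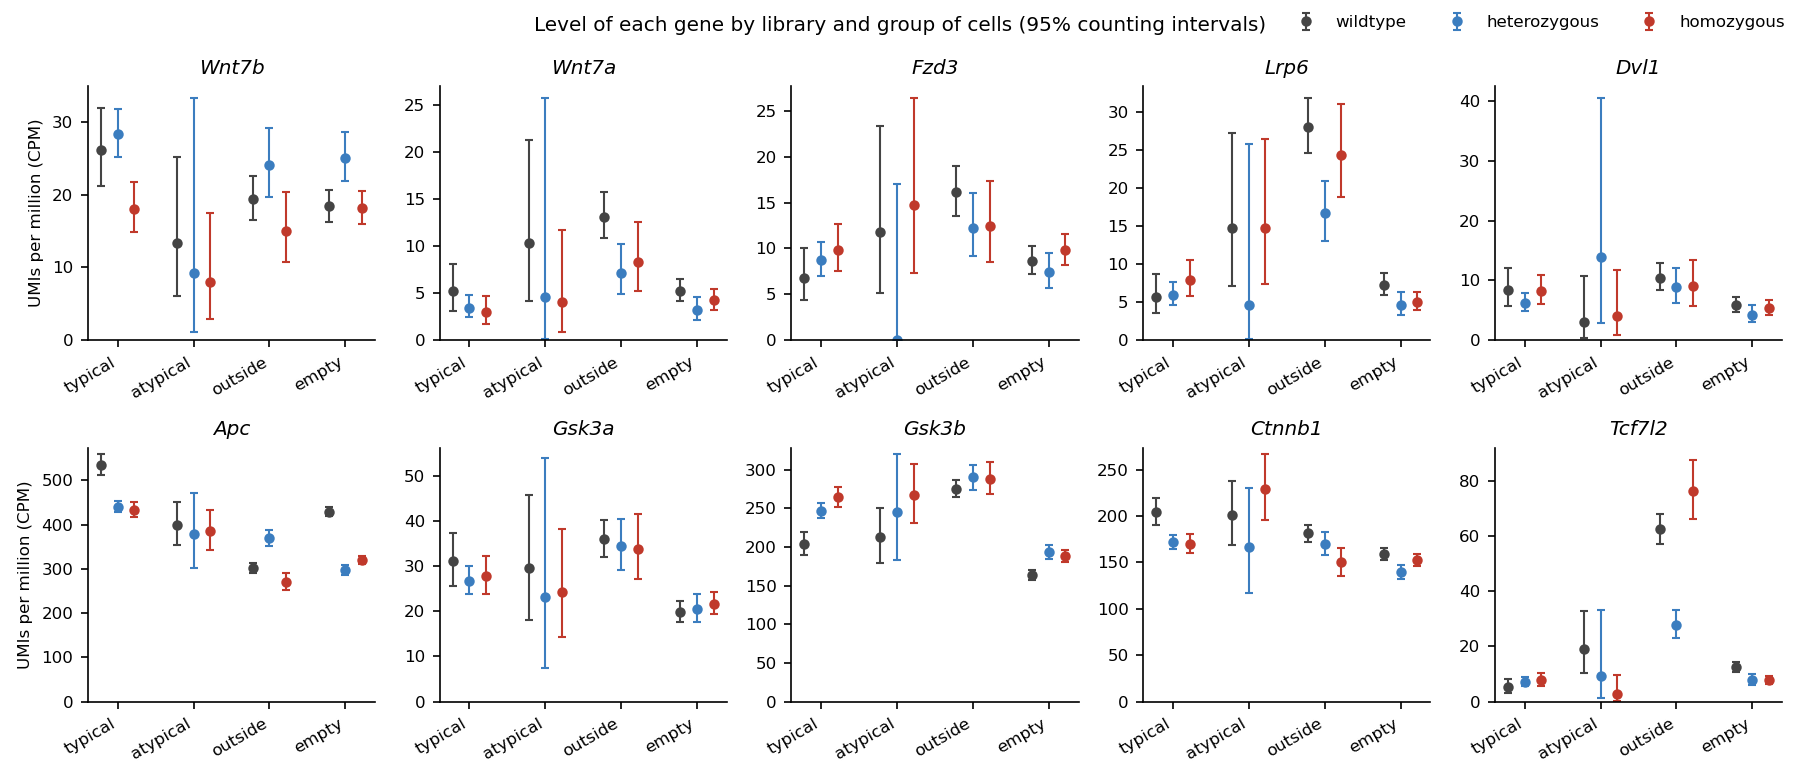
CPM of each of the 10 genes (y axis, from 0, scaled per gene) in typical neuronal cells, atypical neuronal cells, filtered cells outside the neuronal table and empty droplets (x axis), with wild-type, heterozygous and homozygous libraries as grey, blue and red points and 95% counting intervals as bars. *Tcf7l2* and *Lrp6* are highest in cells outside the neuronal table in all 3 libraries, and *Wnt7a* likewise with wide intervals in atypical cells.

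Cells outside the neuronal table differed from typical neuronal cells of the same library in several of the 10 genes. *Tcf7l2* was higher outside by 3.60 (2.94 to 4.34), 1.95 (1.52 to 2.38) and 3.31 (2.85 to 3.798) on the log2 scale in the wild-type, heterozygous and homozygous library. *Lrp6* was higher by 2.296, 1.49 and 1.63 and *Wnt7a* by 1.34, 1.05 and 1.48, with all 6 intervals above 0. *Fzd3* was higher outside by 1.24 (0.62 to 1.92) in the wild-type library, and intervals of the other two libraries spanned 0. *Apc* was lower outside, with ratios of −0.83, −0.25 and −0.68, all 3 intervals below 0. *Gsk3b* was higher outside by 0.43, 0.23 and 0.13, but with mitochondrial and ribosomal protein genes left out of the denominator these values were 0.22, 0.12 and −0.04. *Wnt7b*, *Gsk3a*, *Ctnnb1* and *Dvl1* each had an interval spanning 0 in at least 1 library.

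The 5453 cells outside the neuronal table were clustered without any gene of the pathway list. Of 25 clusters 17 were named from marker genes as 11 classes, and 8 clusters with 1250 cells stayed unnamed. The heat map shows the levels in 10 of these classes, leaving out 13 ependymal and choroid plexus cell-like cells. Names of this kind rest on markers alone, and no doublet caller was run.

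*Wnt7b* was highest in 70 Cajal-Retzius cell-like cells, a cluster led by *Reln* and *Ndnf*. The class had 73 *Wnt7b* UMIs, 198 CPM (155 to 249), where typical neuronal cells of the libraries summed had 24.9 CPM. The level was 176 CPM (130 to 234) in the 50 cells of the wild-type library. The heterozygous and homozygous libraries held 14 and 6 such cells, with 23 and 3 UMIs. Astrocyte and radial glia-like cells had 30.8 CPM, excitatory neuron-like cells 25.1, cycling cell-like cells 12.5, inhibitory neuron-like cells 11.2, meningeal fibroblast-like cells 10.4 and oligodendrocyte lineage-like cells 6.65. Astrocyte and radial glia-like cells held *Wnt7b* at 29.2, 24.8 and 43.1 CPM in the wild-type, heterozygous and homozygous library, and the homozygous over wild-type ratio there was 0.56 (−0.38 to 1.43).

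*Wnt7a* had another order. By clusters it was highest in astrocyte and radial glia-like cells, with 83 UMIs and 39.4 CPM (31.3 to 48.8), and was at 41.2, 34.7 and 37.7 CPM in the 3 libraries. These 3 values were closer to each other than their counting intervals. With cells put in classes by marker UMIs in place of clusters the level was 13.7 CPM. That rule takes for each cell the list with most UMIs. In typical neuronal cells the astrocyte and radial glia list was at 10810, 9974 and 10974 CPM in the wild-type, heterozygous and homozygous library. The excitatory neuron list was at 2895, 3556 and 4204 CPM there. Whether classes by marker UMIs take in other cells was not tested, and the lead of this class is given for the clusters only. Cycling cell-like cells had 16.1 CPM, made of 75.9 CPM (37.9 to 136) in a cluster of 38 cells, with 11 UMIs, and 9.02 CPM in a cluster of 350 cells, also with 11 UMIs. The smaller cluster also carried 8 of the 9 astrocyte and radial glia markers at over 2-fold, and the larger cluster 5 of the 8 inhibitory neuron markers. Inhibitory neuron-like cells had 13.8 CPM. No *Wnt7a* UMI was counted in Cajal-Retzius cell-like cells, 0 of 266551 UMIs in the wild-type library, where 3 counts, the limit set for a count of 0, are 11.3 CPM and the exact Poisson bound is 13.8 CPM. Endothelial cell-like cells, which respond to both ligands in the brain, had 3 *Wnt7a* UMIs, 1.89 CPM.

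*Tcf7l2*, known for a transient phase of oligodendrocyte maturation, was highest in oligodendrocyte lineage-like cells, with 332 UMIs and 368 CPM (329 to 409), or 614 CPM with classes by marker UMIs. The class was made of a cluster with *Mbp* and *Enpp6* among its leading genes, with 287 UMIs in 83 cells or 756 CPM (671 to 849), and a cluster led by *Pdgfra* and *Olig2*, with 45 UMIs in 192 cells or 86.0 CPM (62.7 to 115). In the *Mbp* cluster the level was 630 CPM (533 to 739) in 52 wild-type cells. It was 969 CPM (792 to 1173) in 25 homozygous cells with 105 UMIs and 956 CPM (658 to 1342) in 6 heterozygous cells with 33 UMIs. Both mutant libraries are under the 50 cells asked of a class for a level per library. The intervals leave out the spread between cells, so no difference between libraries is read from these values. In the *Pdgfra* cluster 161 of the 192 cells were of the wild-type library, at 84.9 CPM. Astrocyte and radial glia-like cells had 78.2 CPM, endothelial cell-like cells 66.9 and meningeal fibroblast-like cells 56.0. Cajal-Retzius cell-like cells had 0 *Tcf7l2* UMIs, with the same limits as for *Wnt7a*.

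*Lrp6* was at 47.7 CPM (30.2 to 71.6) in meningeal fibroblast-like, 47.4 (27.1 to 77.0) in mural cell-like, 44.8 (35.02 to 56.6) in endothelial cell-like and 37.7 (26.1 to 52.6) in oligodendrocyte lineage-like cells, which did not differ beyond their intervals. In typical neuronal cells it was at 6.497 CPM (5.43 to 7.71), and in excitatory neuron-like cells at 4.78 CPM. *Fzd3* was at 24.9 CPM in cycling cell-like cells, 21.8 in astrocyte and radial glia-like and 21.6 in inhibitory neuron-like cells, and at 3.79 in endothelial cell-like cells. Among classes of at least 50 cells *Dvl1* was highest in endothelial cell-like cells, with 29 UMIs and 18.3 CPM (12.3 to 26.3), an interval that overlapped those of Cajal-Retzius cell-like, inhibitory neuron-like, meningeal fibroblast-like, mural cell-like, oligodendrocyte lineage-like and microglia-like cells.

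The genes with broad expression differed less between classes. *Ctnnb1* was highest in endothelial cell-like cells at 291 CPM (265 to 319), where β-catenin serves both cell junctions and WNT signaling, and ranged from 126 to 193 CPM in the other named classes of at least 50 cells. *Gsk3b* was highest in inhibitory neuron-like cells at 455 CPM (428 to 483), followed by Cajal-Retzius cell-like cells at 402 (340 to 472), and lowest in meningeal fibroblast-like cells at 164. *Gsk3a* was at 51.9 CPM in inhibitory neuron-like and 51.6 in Cajal-Retzius cell-like cells. *Apc* was highest in excitatory neuron-like cells at 504 CPM (477 to 533), above typical neuronal cells at 456 (446 to 465). With classes by marker UMIs it was at 355 CPM, below typical neuronal cells, but that rule has the limit given for *Wnt7a*. *Apc* was at 133 and 134 CPM in Cajal-Retzius cell-like and endothelial cell-like cells.

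**Figure D4:**
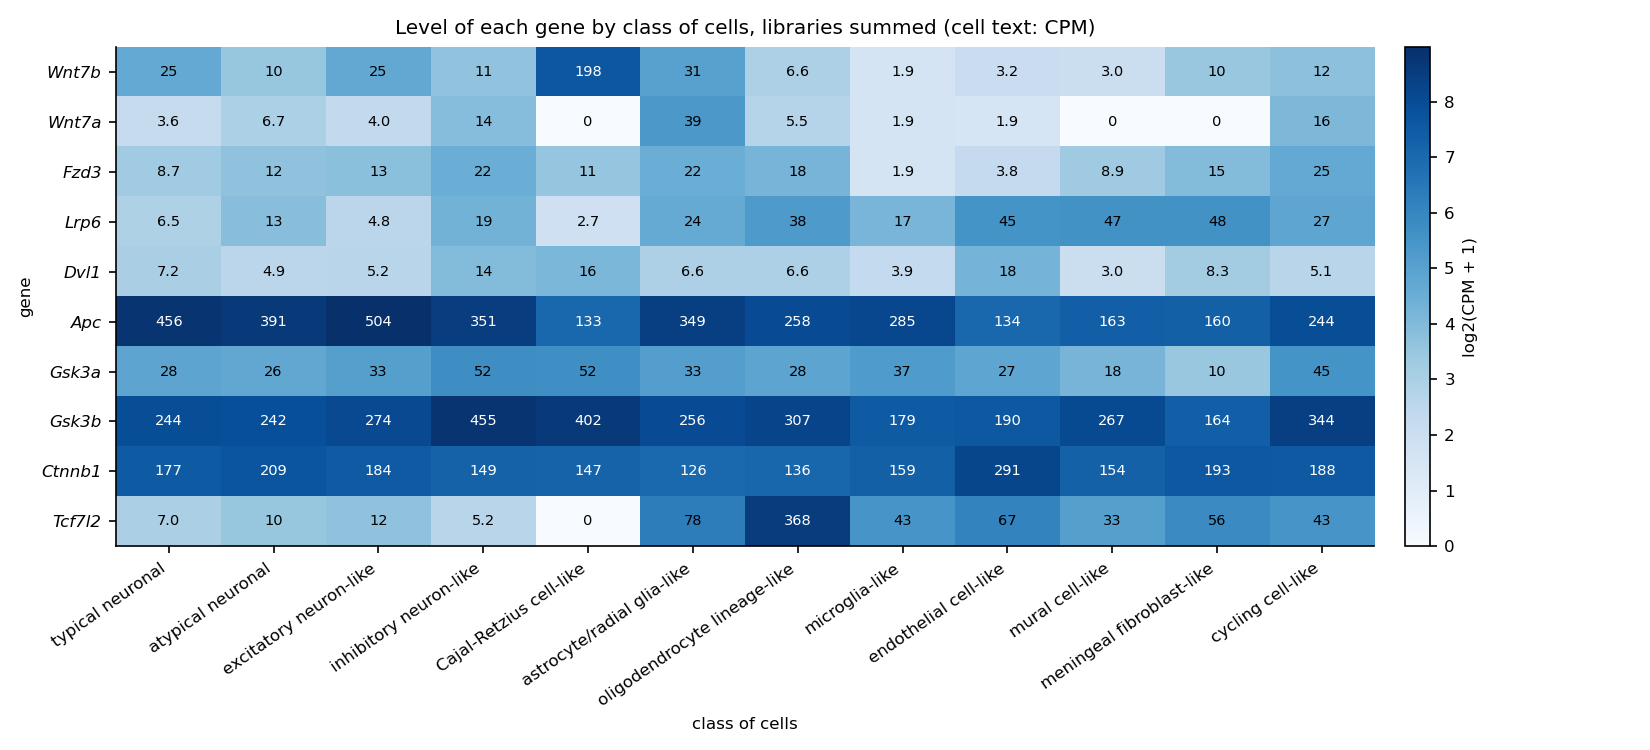
CPM of each of the 10 genes (y axis) by class of cells (x axis), libraries summed, colored by log2(CPM + 1) with the CPM as text. *Wnt7b* peaks in Cajal-Retzius cell-like cells (198 CPM), *Wnt7a* is highest in astrocyte and radial glia-like cells as clustered (39.4), and *Tcf7l2* peaks in oligodendrocyte lineage-like cells (368).

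The genes whose levels followed these 3 genes most closely were taken by Pearson correlation of log2(CPM + 1) over 13 classes, typical and atypical neuronal cells and the 11 named classes, among 11398 genes. The points share libraries and differ in depth, and the values are descriptions. For *Wnt7b* they were *B3galt1*, *Ufsp1* and *Aen* (r = 0.92 each), for *Wnt7a* *Ntng1* (0.94), *Usp51* (0.93) and *Kirrel3* (0.92), and for *Tcf7l2* *Inppl1* (0.96), *2810402E24Rik* and *Otud7b* (0.92 each). *Otud7b* was highest, at 41.1 CPM, in the 13 ependymal and choroid plexus cell-like cells, where 1 UMI is 20.5 CPM.

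The ratios between libraries were also read in classes with at least 50 cells in each library. The share of all genes whose intervals exclude 0 was not counted in these classes. *Gsk3b* in inhibitory neuron-like cells was at 422, 520 and 489 CPM in the wild-type, heterozygous and homozygous library. The log2 ratio was 0.21 (−0.02 to 0.45) for homozygous over wild-type and 0.30 (0.09 to 0.51) for heterozygous over wild-type. In endothelial cell-like cells the ratios were 0.38 (−0.02 to 0.77) and 0.39 (−0.09 to 0.85), in excitatory neuron-like cells 0.09 and 0.12, and in astrocyte and radial glia-like cells −0.01 and −0.06, and all these intervals spanned 0. In inhibitory neuron-like cells the interval thus excluded 0 for the heterozygous library only.

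*Ctnnb1* in inhibitory neuron-like cells was at 172, 122 and 100.3 CPM, with ratios of −0.78 (−1.29 to −0.30) for homozygous over wild-type and −0.49 (−0.92 to −0.08) for heterozygous over wild-type. The intervals in the other classes spanned 0, with ratios of −0.45 and −0.19 in excitatory neuron-like, −0.08 and 0.12 in astrocyte and radial glia-like and −0.24 and 0.12 in endothelial cell-like cells. Over all cells outside the neuronal table the *Ctnnb1* ratios were −0.27 (−0.43 to −0.11) and −0.09 (−0.22 to 0.04). *Apc* in inhibitory neuron-like cells was at 411, 233 and 286 CPM, with ratios of −0.52 (−0.82 to −0.23) and −0.82 (−1.12 to −0.53). *Apc* was also lower in excitatory neuron-like cells, by −0.45 (−0.74 to −0.16) and −0.20 (−0.39 to −0.01), and in endothelial cell-like cells for homozygous over wild-type, −0.73 (−1.31 to −0.19). In astrocyte and radial glia-like cells the *Apc* ratios were 0.02 (−0.28 to 0.30) and −0.03 (−0.32 to 0.24). Most inhibitory neuron-like cells of the wild-type library, 561 of 612, were in the cluster led by *Dlx6os1* and *Sp8*, where the heterozygous library had 78 of 155 and the homozygous library 88 of 150. That cluster had *Ctnnb1* at 188 CPM, *Apc* at 430 CPM and *Gsk3b* at 428 CPM, and the other inhibitory neuron-like cluster, led by *Npy* and *Sst*, had them at 79.4, 209 and 503 CPM. The inhibitory ratios of all 3 genes thus run in the same direction as the difference between these clusters. Most excitatory neuron-like cells of the heterozygous library, 261 of 431, were in the cluster led by *Nrgn* and *Bhlhe22*, which held 41 of 210 wild-type and 25 of 205 homozygous cells. *Apc* was at 563 CPM in that cluster and at 430 CPM in the cluster of 486 cells led by *Prc1* and *Gng7*. The heterozygous over wild-type *Apc* ratio of excitatory neuron-like cells, −0.20, thus runs in the opposite direction to the difference between these clusters. The homozygous over wild-type ratio, −0.45, runs in the same direction. The part of the makeup in each inhibitory and excitatory ratio was not tested.

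**Figure D5:**
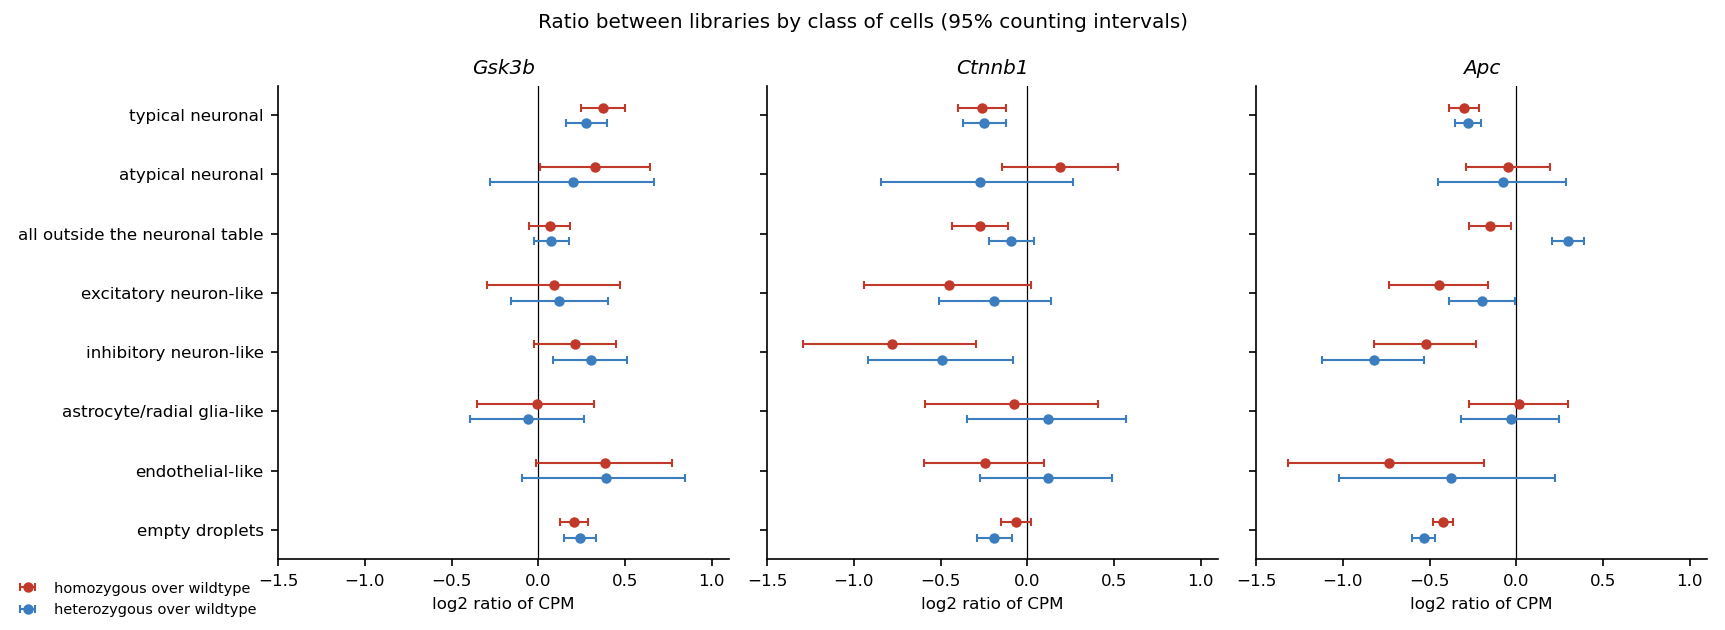
Log2 ratio of CPM (x axis) of *Gsk3b*, *Ctnnb1* and *Apc* for homozygous over wild-type (red) and heterozygous over wild-type (blue) by class of cells (y axis), with 95% counting intervals as bars. *Gsk3b* lies to the right of 0 and *Apc* to the left in typical neuronal cells and in empty droplets, and *Apc* in all cells outside the neuronal table lies to the right for heterozygous over wild-type (0.30).

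For 1 gene of each role, picked by its level in a named class and not meant as an order between genes, the class with the highest level is given. The ligand *Wnt4* was at 326 CPM in meningeal fibroblast-like cells, with 157 UMIs, and the WNT carrier *Wls* at 230.3 CPM in the same class. The receptor *Fzd6* was at 99.1 CPM in endothelial cell-like cells, and *Nkd1*, an inhibitor of Dishevelled, at 317 CPM in the same class. The secreted modulator *Dkk3* was at 372 CPM in Cajal-Retzius cell-like cells, with 137 UMIs. *Dvl2* was at 21.04 CPM in oligodendrocyte lineage-like cells and *Ctnnbip1* at 424 CPM in astrocyte and radial glia-like cells. For the destruction complex this gene was *Apc*, in excitatory neuron-like cells.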

How the data were processed

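scRNA-seq of tdTomato-sorted P5 mPFC cells was read as raw UMI counts, which the authors deposited without normalization for every barcode and for 17396 filtered cells. Per the submitters' processing notes the counts were made with Cell Ranger 2.0.1 on mm10. The deposited table of neuronal cells named as raw counts holds a natural log of scaled counts, and another table holds scaled scores, and neither was used. Counts were summed per library and group of cells and given as CPM with exact 95% intervals. Outside cells were clustered with scanpy 1.11.5 (2000 variable genes, 30 principal components, 15 neighbors, Leiden resolution 1). Scaling alternatives used edgeR 4.0.16 and DESeq2 1.42.0. Genes past a log2 ratio of 0.32 were counted where the mean CPM reached 20. The named genes were the 10 genes, list genes at this level, the highest gene per role in a named class, and the 3 closest genes by correlation. Members and lists were chosen with earlier results of these data known. The ratios and their intervals were tested on simulated library sums with counting error only, and the other steps were not tested in this way. Gene positions are GENCODE M21 on GRCm38.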

Additional observations from a re-analysis of the deposited data

Results flagged for a closer look

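*Apc* had opposite heterozygous over wild-type ratios in 2 groups of cells, each with an interval that excludes 0. In cells outside the neuronal table, at 301 CPM in the wild-type and 370 CPM in the heterozygous library, the log2 ratio was 0.30 (0.21 to 0.39), and in typical neuronal cells it was −0.28 (−0.36 to −0.20). Each library is a single sample, and the difference was not tested. Within named classes the same ratio was −0.20 in excitatory neuron-like, −0.82 in inhibitory neuron-like, −0.03 in astrocyte and radial glia-like and −0.38 in endothelial cell-like cells, and 0.51 (−0.03 to 1.05) in microglia-like cells. Excitatory neuron-like cells, at 504 CPM of *Apc* as clustered and 355 CPM with classes by marker UMIs, made up 7.31% of the outside cells of the wild-type library and 30.8% of those of the heterozygous library. Cells of unnamed clusters made up 16.9% and 30.9%, and 301 of the 432 heterozygous ones were in a cluster led by *Crybb1* and *Aif1*, with *Apc* at 437 CPM. Its 10 leading genes were *Crybb1*, *Aif1*, *Pycard*, *Bin2*, *Bcl2a1b*, *Cryba4*, *Xlr*, *Rgs10*, *Spi1* and *Ly86*. None of them was on the microglia list or another marker list used here. The lists do not hold every gene of a cell type, so this does not decide whether microglia or mixed droplets are among these cells. *Wnt7b* was at 23.6 CPM there, beside 24.9 in typical neuronal and 1.94 in microglia-like cells. Microglia-like cells had *Apc* at 285 CPM. The part of the makeup by class in the difference was not tested.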

How the results depend on the processing

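Each ratio in typical neuronal cells was recomputed under 8 alternatives and most values stayed within their counting intervals. No paired analysis was possible because each genotype has 1 library, and for the same reason no library could be left out. As mean raw UMIs per cell the homozygous over wild-type log2 ratios were −0.95 for *Wnt7b*, −0.68 for *Ctnnb1*, −0.047 for *Gsk3b*, which changed sign, −0.58 for *Gsk3a* and −0.72 for *Apc*, beside a median of −0.34 over all genes. On that scale the homozygous over heterozygous ratios were −0.98, −0.35, −0.24, −0.28 and −0.36 in the same order, and *Apc* was at −0.37 for heterozygous over wild-type. With the empty-droplet profile subtracted *Tcf7l2* was at 1.53 for homozygous over wild-type and 1.41 for heterozygous over wild-type, from 19 to 75 UMIs per library. The signs of *Wnt7b*, *Ctnnb1* and *Apc* for homozygous over wild-type were the same under all 8 alternatives. The count of genes past the limit of 0.32 for homozygous over wild-type, 2 of 5, became 4 as mean raw UMIs per cell (all genes: 1.01% higher, 52.4% lower), 4 after thinning to 1000 UMIs per cell (18.8% and 10.2%), 3 with edgeR TMM factors, 3 with DESeq2 size factors, 3 with the empty-droplet profile subtracted (18.1% and 10.9%) and 0 at 1.5-fold, where 4.9% of all genes were past the limit. For heterozygous over wild-type, 0 of 5 became 1 with edgeR TMM factors (all genes: 12.5% higher, 13.4% lower), 1 with DESeq2 size factors (12.3% and 13.5%), 1 with the empty-droplet profile subtracted (16.6% and 12.2%) and 2 as mean raw UMIs per cell (10.4% and 15.2%). Without a limit on CPM the share of all genes past it was 47.4% for homozygous and 48.1% for heterozygous over wild-type. TMM and DESeq2 moved the share of all genes higher in the homozygous library from 17.2% to 10.98% and 10.2% and the share lower from 8.5% to 12.7% and 13.4%.

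For outside over typical cells, leaving mitochondrial and ribosomal protein genes out of the denominator gave, in the wild-type, heterozygous and homozygous library, −1.05, −0.36 and −0.85 for *Apc* and 0.22, 0.12 and −0.043 for *Gsk3b*, and −0.39 in the wild-type and −0.35 in the homozygous library for *Ctnnb1*. Thinning gave −0.72 and −0.48 for *Apc* in the wild-type and homozygous libraries, −0.70 for *Wnt7b* in the heterozygous library and 2.55 for *Tcf7l2* in the homozygous library. With cells put in classes by marker UMIs, *Wnt7a* was at 13.7 CPM in astrocyte and radial glia-like, *Gsk3a* at 67.4 in inhibitory neuron-like, *Apc* at 355 in excitatory neuron-like and *Tcf7l2* at 614 in oligodendrocyte lineage-like cells. At cluster resolution 0.5 *Gsk3a* was at 42.6 CPM in inhibitory neuron-like cells. The causes of these shifts were not tested. Depth limits the 5 genes under 20 CPM, with 18 to 91 UMIs per library in typical neuronal cells.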

Other observations

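Pathway genes beyond the named ones, chosen after their values were seen, had levels of note outside the neurons. In meningeal fibroblast-like cells *Wnt5a* was at 156 CPM and *Wnt6* at 99.6 CPM, besides *Wnt4*. In endothelial cell-like cells the transcription factor *Lef1* was at 185 CPM, *Ccnd1* at 204 CPM and the secreted WNT inhibitor *Notum* at 107 CPM, besides *Nkd1*, and *Axin2* was at 85.9 CPM in mural cell-like cells with 29 UMIs. An unnamed cluster of 115 cells led by *Pf4*, *Lyve1* and *Mrc1* had the highest *Lrp6* level of all clusters, 90.6 CPM (65.0 to 123) from 41 UMIs.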
